A study of Mus musculus with 34 samples.

Results

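The levels of 10 genes were followed across kidneys of Pkd2-KO mice, a rapidly cystic model of polycystic kidney disease: 8 genes carried by macrophages in general (Adgre1, Cd68, Csf1r, C1qa, C1qb, C1qc, Trem2 and Gpnmb) and the genes of the 2 growth factors that bind Csf1r (Csf1 and Il34). They were chosen by name, and all 10 were found among the 23509 gene symbols of the count tables and among the 15644 genes tested, Adgre1 under its older symbol Emr1. RNA was sequenced from 34 kidneys of C57BL6 mice, 1 library per mouse, at postnatal day 28 (P28). The PBS group (n = 11) and the RGLS4326 group (n = 11) were Pkd2-KO mice, in which floxed Pkd2 alleles are deleted by a Pkhd1/cre transgene active in kidney tubules. Their labels spell the genotype Pdk2KO. RGLS4326 was given subcutaneously at 20 mg/kg on P10, P11, P12 and P19, and PBS, the vehicle, on the same days. The third group (n = 12) was untreated and non-transgenic (UNT), so genotype and injection cannot be told apart between PBS and UNT mice.

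Macrophages depend for survival on signals through Csf1r, a receptor tyrosine kinase whose ligands Csf1 and Il34 are made by epithelial, stromal and other cells, kidney tubules among them. Adgre1 encodes the surface receptor F4/80 and Cd68 a lysosomal glycoprotein, both classical markers of mouse macrophages. C1qa, C1qb and C1qc encode the 3 chains of C1q, which recognizes targets for the classical complement pathway, and macrophages are its main source. Trem2 is a lipid-sensing receptor, and Gpnmb a glycoprotein of macrophages rich in lysosomes and lipid. In polycystic kidneys, macrophages collect around cysts. RGLS4326 is a short, chemically modified oligonucleotide that pairs with the seed of miR-17, a microRNA that represses mRNAs holding the complementary letters in their 3′UTR.

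Because the drug acts on a seed, that seed and the letters that match it in these genes are shown first. The mature microRNAs below, from RefSeq on GRCm38.p6, belong to the miR-17 family and share a single seed, bases 2 to 8, in capitals.
miR-17-5p: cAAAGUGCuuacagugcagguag
miR-20a-5p: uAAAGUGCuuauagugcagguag
miR-93-5p: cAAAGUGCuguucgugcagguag
miR-106b-5p: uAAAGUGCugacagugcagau

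The letters GCACTTT, complementary to that seed, were found once in the longest annotated 3′UTR (GENCODE M21, GRCm38) of 4 of the 10 genes. A wider rule, which also counted CACTTTA without the leading G, found a match in the same 4 of the 10 genes. By that wider rule, 21.2% of the 14196 tested genes with an annotated 3′UTR held a match. The share of tested genes with GCACTTT itself was not counted. The matches, in capitals within 28 bases of sense-strand sequence, lay at chr17:57483433-57483439 (+) in Adgre1, chr4:136895949-136895955 (-) in C1qa, chr17:48352240-48352246 (+) in Trem2 and chr3:107742094-107742100 (-) in Csf1. A match is a description of the sequence and was not tested as a site.
Adgre1: tgtttcctatGCACTTTcttgtggtgtt
C1qa: gtttctttaaGCACTTTctggaataaac
Trem2: gtcaacttctGCACTTTggacattaaac
Csf1: tctgcatcttGCACTTTgacattcccag

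The promoters of 6 of the 7 genes that fell with the drug, as described below, are given (RefSeq, GRCm38.p6, 250 bases before to 50 after the start), and the table used held no entry for the seventh, C1qa. Capitals mark, on either strand, GAGGAA, the core bound by the macrophage factor PU.1 and other ETS factors (in 28.3% of 32851 promoters of this length), TGACTCA of AP-1 (5.2%), and CATGTG (14.2%) or CACGTG (7.2%), letters bound by MITF and related lysosomal factors. No 2 of these motifs overlap in the sequences shown. They were chosen with the sequences known. Cd68 (chr11:69666121-69666420, -) held GAGGAA and TGACTCA at 2 places each. C1qb (chr4:136886151-136886450, -) and C1qc (chr4:136892865-136893164, -) each held 1 GAGGAA and 1 CATGTG. Trem2 (chr17:48346151-48346450, +) held 1 GAGGAA and Gpnmb (chr6:49036268-49036567, +) 1 TGACTCA. None of these letters was found in Csf1 (chr3:107760420-107760719, -).
Cd68: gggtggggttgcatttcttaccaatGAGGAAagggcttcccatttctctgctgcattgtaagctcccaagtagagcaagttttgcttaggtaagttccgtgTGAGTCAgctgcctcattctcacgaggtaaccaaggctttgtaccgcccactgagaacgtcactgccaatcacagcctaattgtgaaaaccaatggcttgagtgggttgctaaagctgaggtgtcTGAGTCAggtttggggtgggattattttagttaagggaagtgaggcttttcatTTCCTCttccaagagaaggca
C1qb: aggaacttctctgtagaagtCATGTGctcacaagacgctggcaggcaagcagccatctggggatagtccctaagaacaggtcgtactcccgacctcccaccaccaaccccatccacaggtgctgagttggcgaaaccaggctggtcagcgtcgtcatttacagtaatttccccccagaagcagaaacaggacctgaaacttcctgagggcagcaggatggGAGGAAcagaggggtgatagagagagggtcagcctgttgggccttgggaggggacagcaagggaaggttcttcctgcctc
C1qc: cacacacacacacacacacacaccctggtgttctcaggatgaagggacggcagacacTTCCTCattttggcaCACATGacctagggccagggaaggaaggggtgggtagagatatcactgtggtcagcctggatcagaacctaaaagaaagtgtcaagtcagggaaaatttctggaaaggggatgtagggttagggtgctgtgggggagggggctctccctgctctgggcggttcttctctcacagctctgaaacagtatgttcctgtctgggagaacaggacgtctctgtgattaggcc
Trem2: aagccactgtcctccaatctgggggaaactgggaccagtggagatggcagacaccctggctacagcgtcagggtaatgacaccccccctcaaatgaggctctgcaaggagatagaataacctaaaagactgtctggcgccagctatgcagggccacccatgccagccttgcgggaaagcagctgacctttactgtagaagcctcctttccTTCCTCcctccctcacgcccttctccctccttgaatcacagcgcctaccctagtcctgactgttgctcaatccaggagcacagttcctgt
Gpnmb: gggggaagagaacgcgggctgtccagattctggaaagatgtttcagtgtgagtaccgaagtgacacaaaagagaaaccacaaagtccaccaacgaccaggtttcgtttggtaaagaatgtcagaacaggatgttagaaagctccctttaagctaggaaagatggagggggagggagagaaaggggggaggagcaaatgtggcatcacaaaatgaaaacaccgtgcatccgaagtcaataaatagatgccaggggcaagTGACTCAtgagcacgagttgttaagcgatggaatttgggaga
Csf1: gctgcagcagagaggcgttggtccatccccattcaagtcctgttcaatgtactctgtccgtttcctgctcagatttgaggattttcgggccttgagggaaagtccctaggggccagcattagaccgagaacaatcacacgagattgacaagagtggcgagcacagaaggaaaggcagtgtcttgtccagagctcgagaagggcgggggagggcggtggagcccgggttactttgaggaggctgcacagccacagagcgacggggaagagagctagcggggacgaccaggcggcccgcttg

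Libraries held 17603122 to 54981992 reads in genes. Levels are counts per 1000000 reads in genes (CPM), scaled by TMM factors, and adjusted p is the Benjamini-Hochberg adjusted p of edgeR's two-sided quasi-likelihood test over all tested genes, called under 0.05. As a check of the labels, Pkd2 ranged from 219.6 to 338 CPM in UNT, from 98.0 to 215 in PBS and from 170.0 to 237 in RGLS4326 kidneys. Counted over the whole gene, cells without Cre included, its log2 fold change from UNT to PBS was -0.78 ± 0.09 (SE, adjusted p = 1.4e-09). The tissue matched its label, with summed levels of 5 proximal tubule markers at 10574 to 14027 CPM in UNT, 1007 to 3447 in PBS and 2056 to 3790 in RGLS4326 kidneys. Reads in no gene took 9.84% to 11.3% of a library in UNT, 5.18% to 9.0% in PBS and 4.94% to 12.0% in RGLS4326 libraries, so this share moved with the groups. The numbering in the names of the tables restarts, which leaves 3 sets of libraries with 3 or 4 mice of each group, used below as a possible batch.

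The first question was how far the macrophage genes rose in cystic kidneys. All 10 genes rose in PBS relative to UNT kidneys, where 43.1% of all tested genes were called higher, and in each gene the lowest PBS mouse was above the highest UNT mouse, as in 22.7% of all tested genes. Their median log2 fold change was 4.38, against 0.04 over all tested genes. Gpnmb had the steepest rise, 71.5-fold, and Csf1r the smallest, 3.58-fold. In whole-kidney RNA, more macrophages and more RNA of a gene per macrophage cannot be told apart.

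**Figure D1:**
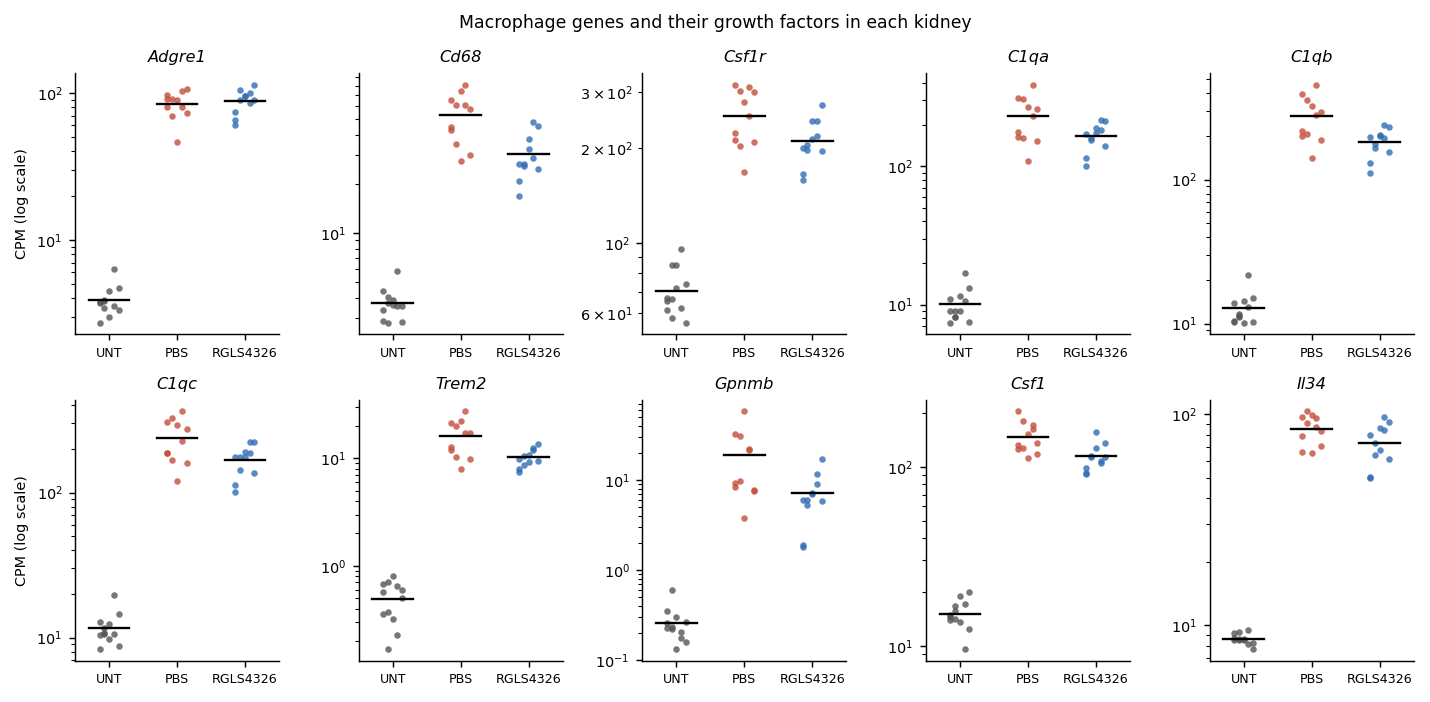
CPM (log axis) of the 10 genes in each kidney of the 3 groups, where each point is a mouse and the line is the group mean. UNT mice sit below all Pkd2-KO mice in every panel, and Adgre1 is the gene whose means in PBS and RGLS4326 kidneys, 83.9 and 88.1 CPM, lie in the opposite order to the other 9.

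Adgre1 (chr17:57358691-57483527 on GRCm38, + strand) had 2.74 CPM in the lowest UNT kidney, a median of 3.74 and 6.34 in the highest. PBS kidneys ranged from 46.3 to 107 CPM around a median of 88.9, and RGLS4326 kidneys from 60.1 to 113 around a median of 89.6. The UNT kidneys stood apart, whereas both Pkd2-KO groups covered nearly the same range. The rise from UNT to PBS was 4.42 ± 0.14 on the log2 scale (SE, adjusted p = 5.7e-25).

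Cd68 (chr11:69664213-69666153, - strand) ran from 2.81 to 5.86 CPM in UNT kidneys, with a median of 3.58. In PBS kidneys it ran from 27.7 to 80.8 (median 57.6), and in RGLS4326 kidneys from 16.7 to 47.8 (median 26.6). The Pkd2-KO groups overlapped, but all 11 RGLS4326 mice were below the PBS mean of 52.8 CPM. Its log2 fold change from UNT to PBS was 3.83 ± 0.19 (SE, adjusted p = 1.14e-19).

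The C1q genes lie side by side, C1qb at chr4:136880129-136886187, C1qc at chr4:136889804-136893065 and C1qa at chr4:136895917-136898803, all on the - strand. In UNT kidneys C1qa ran from 7.41 to 17.0 CPM (median 9.01), C1qb from 10.2 to 21.8 (median 11.4) and C1qc from 8.36 to 19.8 (median 10.7). In PBS kidneys C1qa ran from 109 to 388 (median 232), C1qb from 141 to 453 (median 279) and C1qc from 119 to 363 (median 228). The 3 chains rose by log2 fold changes of 4.50 ± 0.19, 4.44 ± 0.18 and 4.34 ± 0.18 (SE, largest adjusted p = 1.96e-21). Per kilobase of transcript, the mean level in PBS kidneys was 222 ± 82.6 CPM per kb for C1qa, 255 ± 88.9 for C1qb and 197 ± 66.0 for C1qc (SD, n = 11). The chains kept 1 order within mice there, since C1qb was above C1qa, by 1.16-fold on average (1.08 to 1.24), and C1qa above C1qc, by 1.11-fold (1.01 to 1.24), in all 11 PBS mice. The order of C1qa and C1qc rests on the transcript lengths used, since in CPM the PBS mean was 231 for C1qa and 237 for C1qc. In UNT mice C1qa was above C1qc per kilobase in 5 of 12.

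Trem2 (chr17:48346401-48354147, + strand) was close to the limit of counting in UNT kidneys, with 3 to 32 reads per library and 0.168 to 0.808 CPM (median 0.537). PBS kidneys held 7.95 to 27.4 CPM (median 17.1). Gpnmb (chr6:49036546-49070929, + strand) was rarer still in UNT kidneys, with 4 to 25 reads and 0.134 to 0.604 CPM (median 0.231). In PBS kidneys it was the most variable of the 10 genes, from 3.80 to 58.4 CPM (median 9.79), with a coefficient of variation of 84.4%. No UNT kidney reached the lowest PBS kidney for either gene. The log2 fold changes were 4.99 ± 0.22 for Trem2 (adjusted p = 3.33e-21) and 6.16 ± 0.46 for Gpnmb (SE, adjusted p = 1.3e-14).

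The receptor gene Csf1r (chr18:61100598-61132149, + strand) had the highest level of the 10 in UNT kidneys per kilobase of transcript, and ran from 55.8 to 95.5 CPM (median 66.3). It ran from 167 to 316 CPM in PBS kidneys (median 252) and rose by 1.84 ± 0.11 on the log2 scale (SE, adjusted p = 1.5e-17). The strand setting of the counting was not given, and 873 of the 5774 exon bases of Csf1r overlap Hmgxb3, a gene on the opposite strand, so Csf1r counts are uncertain to that extent. Hmgxb3 itself was at 44.6 ± 3.86 CPM in UNT (n = 12) and 45.4 ± 3.71 in PBS kidneys (SD, n = 11), and its change was 0.02 ± 0.06 on the log2 scale (SE, adjusted p = 0.70).

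Both ligand genes rose by about the same factor. Csf1 (chr3:107741048-107760469, - strand) ran from 9.60 to 19.9 CPM in UNT kidneys (median 14.7) and from 112 to 204 in PBS kidneys (median 137), a 9.75-fold rise. Il34 (chr8:110741829-110805924, - strand) ran from 7.72 to 9.49 CPM in UNT kidneys (median 8.57), the tightest spread of the 10 genes, and from 65.6 to 103 in PBS kidneys (median 86.6), a 9.85-fold rise. The log2 fold changes were 3.29 ± 0.11 (adjusted p = 9.18e-24) and 3.30 ± 0.10 (SE, adjusted p = 5.35e-25). Exons of Il34 overlap the antisense genes Gm15894, by 22 bases, and Gm15895, by 75. Per kilobase, the mean level in PBS kidneys was 35.4 ± 6.99 CPM per kb for Csf1, 49.8 ± 7.83 for Il34 and 53.7 ± 11.1 for their receptor (SD, n = 11), while in UNT kidneys these were 3.62 ± 0.677, 5.05 ± 0.295 and 15.0 ± 2.60 (n = 12).

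The rises were also called within each of the 3 library sets, and in every alternative fit listed in the closing section, though from UNT to PBS the size moved most for 4 genes. With each library's share of unassigned reads (those in no gene) as covariate, the log2 fold change was 5.17 for Gpnmb, 3.12 for Cd68 and 3.73 for C1qc. In set 1 alone Gpnmb rose by 7.25, and in set 2 alone Gpnmb rose by 4.96 and Trem2 by 4.19. UNT replicate 9 was the highest UNT mouse for Adgre1, Cd68, Csf1r, all 3 C1q genes and Il34, yet stayed below all PBS mice in each of them.

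**Figure D2:**
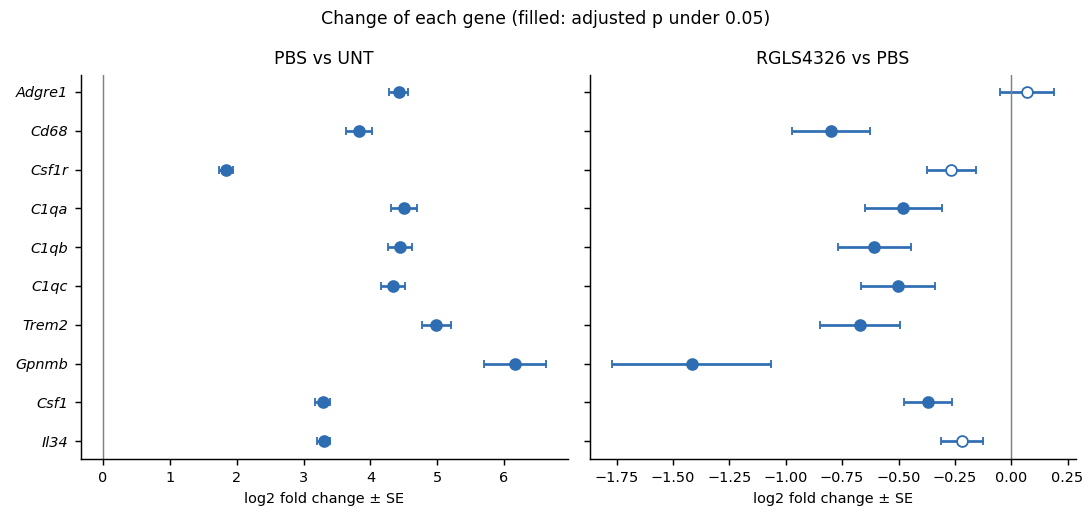
Log2 fold change ± SE of each gene from UNT to PBS (left) and from PBS to RGLS4326 (right), with filled points for an adjusted p under 0.05. All 10 genes are to the right of 0 on the left and 9 of 10 to its left on the right, where Adgre1 sits at 0.07.

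The second question was how the same genes differed between RGLS4326 and PBS kidneys. No mouse here was given a control oligonucleotide, so effects of the base sequence and of any oligonucleotide cannot be told apart. Of the 10 genes, 7 fell relative to PBS, where 18.5% of all tested genes were called lower: Cd68, C1qa, C1qb, C1qc, Trem2, Gpnmb and Csf1. Csf1r, Il34 and Adgre1 were not called. The median log2 fold change of the 10 genes was -0.49, against 0.002 over all tested genes, and the Pkd2-KO groups overlapped in every gene.

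Gpnmb fell most by the fitted change, while its median went from 9.79 CPM to 6.11, with RGLS4326 kidneys between 1.81 and 17.2 CPM. Between medians, Cd68 (57.6 to 26.6 CPM) and Trem2 (17.1 to 9.86) fell by a larger factor. The fitted fall of Gpnmb was 1.42 ± 0.35 on the log2 scale (SE, adjusted p = 0.00547), with a PBS mean of 19.3 CPM that 1 mouse at 58.4 raised. Cd68 followed at -0.80 ± 0.17 (SE, adjusted p = 0.00258). Trem2 was between 7.54 and 13.7 CPM in RGLS4326 kidneys (median 9.86) and fell by 0.67 ± 0.18 on the log2 scale (SE, adjusted p = 0.00706). For each of these 3 genes all 11 treated mice were below the PBS mean, which for Gpnmb lay well above the PBS median of 9.79 CPM.

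Among the C1q genes, RGLS4326 kidneys held 100.1 to 216 CPM of C1qa (median 172), 110.5 to 238 of C1qb (median 195) and 100.4 to 225 of C1qc (median 177). The changes were -0.48 ± 0.17 (adjusted p = 0.0304), -0.61 ± 0.16 (adjusted p = 0.00708) and -0.50 ± 0.16 (SE, adjusted p = 0.02). All 11 treated mice were below the PBS mean for each chain.

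The growth factor gene Csf1 was between 90.6 and 157 CPM in RGLS4326 kidneys (median 113) and fell by 0.37 ± 0.11 on the log2 scale (SE, adjusted p = 0.0116). Il34 was between 49.8 and 97.1 CPM (median 73.2) with a difference of -0.22 ± 0.09 on the log2 scale (SE, adjusted p = 0.0698). Csf1r was between 158 and 273 CPM (median 204), with -0.27 ± 0.11 (SE, adjusted p = 0.0532). Neither passed, although 10 of 11 treated mice were below the PBS mean for Csf1r. The change of Hmgxb3 in the same comparison was -0.10 ± 0.06 on the log2 scale (SE, adjusted p = 0.184).

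The log2 fold change of Adgre1 was 0.07 ± 0.12 (SE, adjusted p = 0.656), with a 95% interval from -0.16 to 0.31, and 8 of 11 treated mice were above the PBS mean. Of the 4 genes with a match to the seed, 3 fell (C1qa, Trem2 and Csf1), and so did 4 of the 6 genes without one (Cd68, C1qb, C1qc and Gpnmb).

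**Figure D3:**
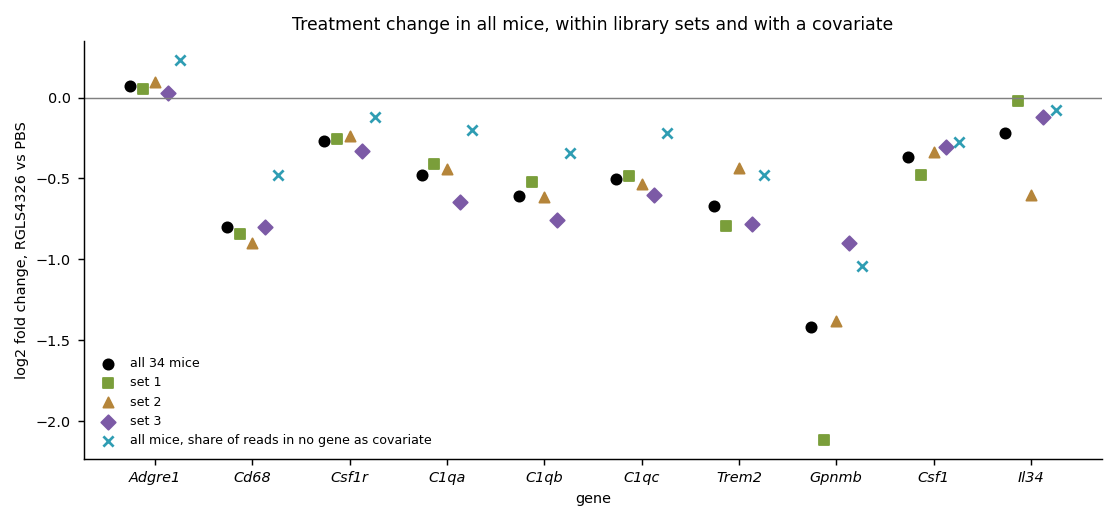
Log2 fold change from PBS to RGLS4326 of each gene in all 34 mice, in each library set alone, and with each library's share of unassigned reads as covariate. Adgre1 is above 0 and the other 9 genes below 0 in all 5 fits, and the covariate moves the points of most genes towards 0.

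The share of reads in no gene moved with treatment, and with it in the model edgeR called none of the 10 genes (5 had an unadjusted p under 0.05), with Gpnmb at -1.04 (adjusted p = 0.135), Cd68 at -0.48 (adjusted p = 0.11), Trem2 at -0.48 (adjusted p = 0.179), C1qb at -0.34 (adjusted p = 0.228), Csf1 at -0.27 (adjusted p = 0.204), C1qc at -0.22 (adjusted p = 0.417) and C1qa at -0.20 (adjusted p = 0.497). It called 89 of all tested genes, against 5280 without the covariate.

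Within the library sets the direction was kept but few calls were. In sets 1, 2 and 3 alone, Cd68 had log2 fold changes of -0.84, -0.90 and -0.80, C1qb of -0.52, -0.61 and -0.76, and Trem2 of -0.80, -0.44 and -0.78. Gpnmb ranged from -2.11 in set 1 to -0.90 in set 3. Il34 was at -0.02, -0.60 and -0.12, and was called in set 2 (adjusted p = 0.0054), together with Cd68, C1qb, C1qc and Gpnmb, where 11.9% of all genes tested in that set were called lower. No gene of the 10 was called in set 1 or set 3, where 7 and 3 had an unadjusted p under 0.05.

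Single mice decided some calls near the threshold. C1qa was no longer called when PBS replicate 2, 9 or 11 or RGLS4326 replicate 5, 6 or 11 was left out (adjusted p from 0.0525 to 0.0835), nor C1qc without PBS replicate 9 (adjusted p = 0.0504). Csf1r was called without PBS replicate 1, 5, 6, 7 or 8, RGLS4326 replicate 3, 4 or 10, or UNT replicate 9 or 10 (adjusted p from 0.0204 to 0.0489). Il34 was called without PBS replicate 1 or 8 or RGLS4326 replicate 3, 4 or 10 (adjusted p from 0.0242 to 0.0497). PBS replicate 8 was the lowest PBS mouse for all 10 genes.

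None of the genes came back to the level of UNT kidneys. All 10 were higher in RGLS4326 than in UNT kidneys, where 40.8% of all tested genes were called higher, and the groups did not overlap, as in 20.7% of all tested genes. For Gpnmb the size again moved, to a log2 fold change of 3.58 in set 2 alone, 5.52 in set 3 alone and 4.13 with the share of unassigned reads as covariate. The log2 fold changes ran from 1.57 ± 0.11 for Csf1r through 2.92 ± 0.11 for Csf1, 3.03 ± 0.18 for Cd68 and 3.08 ± 0.10 for Il34 to 4.74 ± 0.45 for Gpnmb (SE, largest adjusted p = 1.08e-11). Adgre1, at 4.49 ± 0.14, was 22.5-fold above UNT kidneys. The comparisons with RGLS4326 share the PBS or UNT mice with the comparison of PBS and UNT.

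Since the genes differed in the size of their change, each was set against Csf1r within each mouse, as the log2 ratio of counts, and tested by two-sided permutation of mice with 100000 resamples, adjusted over 27 tests. Csf1r had the smallest rise of the 10 genes in both comparisons with UNT kidneys, so the sign of the ratios there follows from the choice of Csf1r, and they are given with no test. From UNT to PBS the mean log2 ratio to Csf1r changed by 1.45 for Il34, 1.46 for Csf1 and up to 3.88 for Gpnmb.

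From PBS to RGLS4326 the genes moved apart. Adgre1 rose relative to Csf1r by 0.33 (adjusted permutation p = 0.000171), and each of the 11 treated mice lay above the PBS mean. Cd68 fell relative to Csf1r by 0.53 (adjusted permutation p = 0.000391), Trem2 by 0.34 and C1qb by 0.31 (both 0.0012), C1qc by 0.21 (0.0261) and Gpnmb by 0.98 (0.0161). C1qa at -0.17 (0.0887), Csf1 at -0.11 (0.201) and Il34 at 0.02 (0.854) did not pass. With the share of unassigned reads as covariate, Adgre1 (0.34), Cd68 (-0.33), Trem2 (-0.30) and C1qb (-0.21) still passed.

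**Figure D4:**
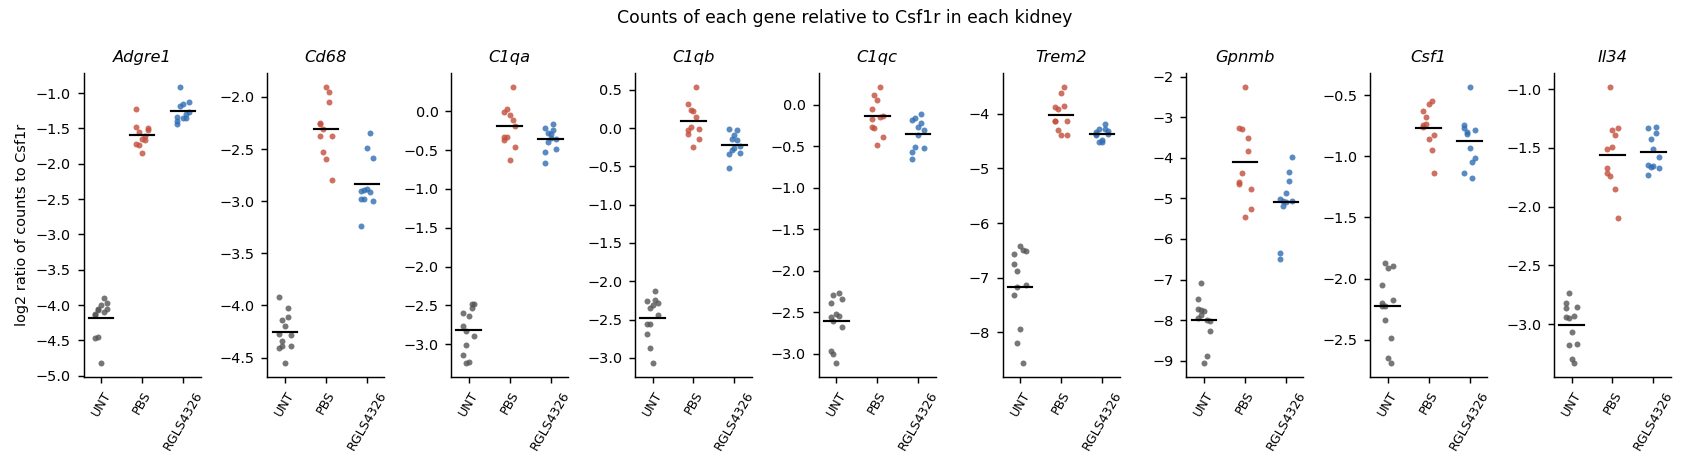
Log2 ratio of the counts of each gene to those of Csf1r in each kidney, with the group mean as a line. The ratios are higher in PBS than in UNT kidneys, a sign set by Csf1r having the smallest rise, and from PBS to RGLS4326 the mean ratio of Adgre1 rises by 0.33 while that of Cd68 falls by 0.53.

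Because exons of Csf1r overlap another gene, the ratios were also taken to Adgre1, a choice made after the data were seen. Adgre1 had the highest change of the 10 genes from PBS to RGLS4326, so the sign of those differences follows from the choice, and they are given with no test. The mean log2 ratio to Adgre1 fell by 1.32 for Gpnmb, 0.86 for Cd68, 0.67 for Trem2, 0.64 for C1qb, 0.54 for C1qc, 0.50 for C1qa, 0.44 for Csf1, 0.33 for Csf1r and 0.31 for Il34. From UNT to PBS the ratios of C1qa, C1qb and C1qc to Adgre1 changed by 0.04, -0.02 and -0.12 and did not pass (adjusted permutation p = 0.827, 0.844 and 0.285). Those of Gpnmb (1.29, adjusted permutation p = 0.00134) and Trem2 (0.55, 0.0326) rose, and those of Cd68 (-0.65), Csf1 (-1.13) and Il34 (-1.14) fell (adjusted permutation p = 2.45e-05 for each), with Csf1r at -2.59. With the share of unassigned reads as covariate, those of Gpnmb (1.23, adjusted permutation p = 0.238), Trem2 (0.27, 0.704) and Il34 (-0.52, 0.179) did not pass. Those of Cd68 (-1.09, adjusted permutation p = 0.00235) and Csf1 (-0.87, 0.0197) still did. From UNT to RGLS4326 the ratios of C1qa, C1qb and C1qc to Adgre1 fell by 0.46, 0.66 and 0.67. Every ratio to Adgre1 was lower there, the least changed being Gpnmb (-0.03) and Trem2 (-0.12). The sign thus follows from the choice of Adgre1, and no test is given.

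Among mice of the same group, the genes varied together to different degrees. Over the 27 relations of a gene to Csf1r (9 genes in 3 groups, log2 CPM), Pearson's r passed in 19 and Spearman's rho in 17 at an adjusted permutation p under 0.05. In PBS mice (n = 11), r was 0.98 for C1qa (rho 0.97), 0.97 for C1qb (rho 0.95), 0.98 for C1qc (rho 0.95) and 0.95 for Trem2 (rho 0.90), with adjusted permutation p of 9e-05 or less for r and 0.00103 or less for rho. Without the 2 mice farthest from the median of Csf1r these were 0.97, 0.95, 0.97 and 0.93, and within library sets 0.98, 0.96, 0.98 and 0.94.

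The ligand genes were also set against their receptor. In PBS mice Csf1 had r = 0.84 with Csf1r (rho 0.89, adjusted permutation p = 0.00316 and 0.00116, 0.76 without 2 mice and 0.83 within library sets), and Il34 had r = 0.42 (rho 0.31, adjusted permutation p = 0.213 and 0.386, 0.06 without 2 mice and 0.65 within library sets). In RGLS4326 mice (n = 11) Il34 had r = 0.91 (rho 0.89, adjusted permutation p = 0.000319 and 0.00116, 0.88 without 2 mice and 0.93 within library sets) and Csf1 r = 0.59 (rho 0.58, adjusted permutation p = 0.0688 and 0.0861, 0.36 without 2 mice and 0.63 within library sets). Whether r differs between the groups was not tested. In UNT mice (n = 12), r passed for Cd68, C1qa and Il34 (0.79, 0.62 and 0.68, or 0.72, 0.45 and 0.59 without 2 mice), and of these rho passed for Cd68 and C1qa (0.79 and 0.65). The relations of C1qa and Il34 in UNT mice no longer passed without the 2 mice (adjusted permutation p = 0.224 and 0.102) or as deviations from set means (0.236 and 0.0863). Without 2 mice, those of Gpnmb in PBS mice (0.60, adjusted permutation p = 0.114) and Adgre1 in RGLS4326 mice (0.67, adjusted permutation p = 0.0786) did not pass either, whereas that of Gpnmb in UNT mice went from r = 0.12 (adjusted permutation p = 0.718) to 0.85 (adjusted permutation p = 0.0079) and passed. With library size alone as the scaling, 4 more relations passed in UNT mice, those of Adgre1 (0.67, adjusted permutation p = 0.0219), C1qb (0.65, 0.0236), C1qc (0.66, 0.0235) and Csf1 (0.60, 0.0434).

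**Figure D5:**
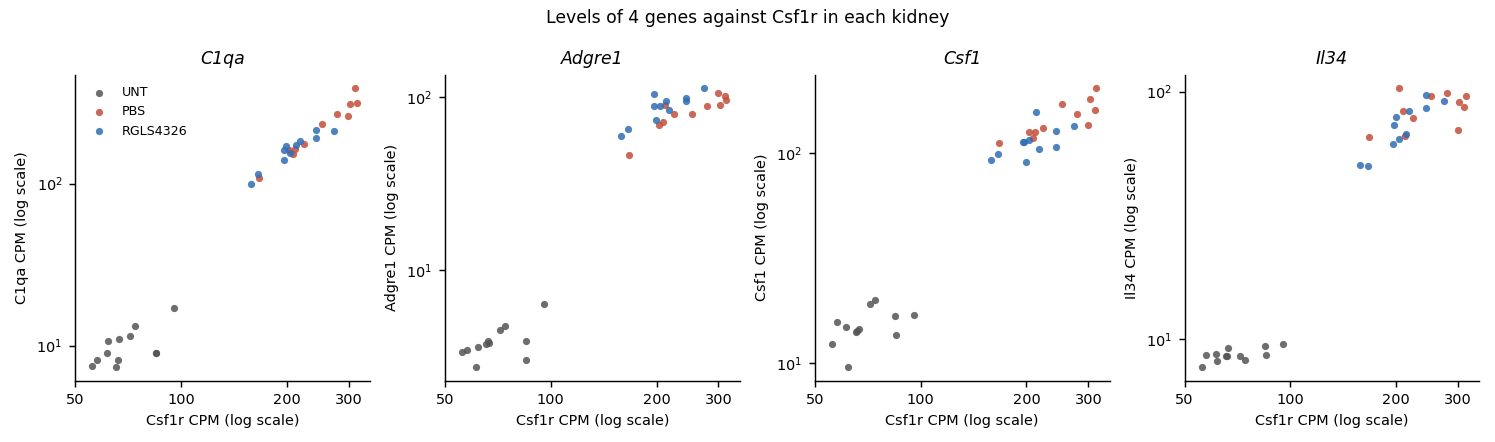
CPM of C1qa, Adgre1, Csf1 and Il34 against CPM of Csf1r in each kidney, both axes on a log scale, coloured by group. Within PBS mice C1qa follows Csf1r closely (r = 0.98), and Il34 is spread more widely (r = 0.42).

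The genes whose levels ran most like these over the 34 mice were found by the root mean square difference of centred log2 CPM, a measure that the gap between UNT and Pkd2-KO kidneys dominates. The C1q genes were nearest to each other, with 0.10 between C1qb and C1qc and 0.11 between C1qa and C1qb, and next came Laptm5, a lysosomal membrane protein of blood cells, at 0.21 from C1qb and 0.19 from C1qc, and Ctss, the lysosomal protease cathepsin S, at 0.23 from C1qa. Nearest to Adgre1 were C3ar1, the receptor for complement fragment C3a (0.25), Pik3ap1 (0.26) and Ctss (0.29).

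Cd68 ran nearest to Cldn4 (0.21), a tight junction gene of the collecting duct, ahead of the myeloid genes Fcer1g (0.25) and Alox5ap (0.27). Csf1r ran nearest to Ppp1r18 (0.16), Npdc1 (0.17) and 1700017B05Rik (0.18). For Csf1 the nearest were Tmem173, which encodes the DNA-sensing adaptor STING, Panx1 and Nfam1 (0.19 to 0.20), and for Il34 Golm1 (0.21), Mgp (0.23) and Arl4c (0.24). Trem2 and Gpnmb had no close neighbour, the nearest being Ppp2r2c at 0.44, Cd84 at 0.45 and Mfap5 at 0.46, and Prss22 at 0.65, Krt4 at 0.66 and the chemokine gene Ccl8 at 0.68.

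Other macrophage genes were examined beside the 10. Of 12 general macrophage and myeloid genes outside them, 11 rose from UNT to PBS and 1 fell (median log2 fold change 4.13). In that comparison 43.1% of all tested genes were called higher and 39.0% lower. Itgam, which encodes the integrin CD11b, went from 1.72 ± 0.315 to 53.2 ± 13.3 CPM, and the lysozyme gene Lyz2 from 14.6 ± 3.29 to 669.8 ± 250.2 (SD, n = 12 and 11). The gene that fell, named for its value, was Mertk, a receptor for dying cells that tubule cells carry too (-1.17, adjusted p = 1.34e-14). With RGLS4326, 5 fell, 1 rose and 6 were not called (median -0.38), beside 18.5% of all tested genes called lower and 15.3% higher. Lyz2 fell by 0.46 ± 0.17 (SE, adjusted p = 0.0332) and Mertk rose by 0.46 (adjusted p = 0.00131). Itgam (-0.13, adjusted p = 0.442) and Cybb, a subunit of the phagocyte oxidase (-0.01, adjusted p = 0.95), were not called.

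Of 5 macrophage transcription factors, 4 rose from UNT to PBS and 3 fell with RGLS4326. Of all tested genes, 43.1% were called higher in the first comparison and 18.5% lower in the second. Spi1, which encodes PU.1, rose by 3.85 ± 0.16 (adjusted p = 1.99e-21) and fell by 0.41 ± 0.15 (SE, adjusted p = 0.0307), while Runx1 rose by 4.52 ± 0.14 (adjusted p = 3.96e-25) and was not called with the drug (-0.22, adjusted p = 0.135). Of 6 genes of signalling below Csf1r and Trem2, all rose from UNT to PBS and 2 fell with RGLS4326. Tyrobp, the adaptor of Trem2, rose by 3.95 ± 0.19 (adjusted p = 3.27e-20) and fell by 0.58 ± 0.17 (SE, adjusted p = 0.0112).

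Of 13 lipid-handling genes known with Trem2 and Gpnmb, 9 rose and 3 fell from UNT to PBS (43.1% and 39.0% of all tested genes), and 8 fell with RGLS4326 (18.5% of all tested genes, median of the list -0.35). Lgals3, which encodes galectin-3, rose by 2.86 ± 0.13 (adjusted p = 7.23e-21) and fell by 0.61 ± 0.12 (SE, adjusted p = 0.00191), and the macrophage elastase gene Mmp12 rose by 4.56 ± 0.22 (adjusted p = 6.69e-20) and fell by 0.52 ± 0.19 (SE, adjusted p = 0.0321). Spp1, the osteopontin gene, which tubules also express, rose by 2.67 ± 0.13 (SE, adjusted p = 5.57e-20) and was not called with the drug (0.17, adjusted p = 0.293).

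C1q acts with proteases, an inhibitor and later components of the classical pathway, of which 6 genes were examined. All 6 rose from UNT to PBS, led by C3 at 5.59 ± 0.24 (SE, adjusted p = 2.91e-21), and 1 fell with the drug, C4b, named for its value (-1.26, adjusted p = 0.000934). Of all tested genes, 43.1% were called higher in the first comparison and 18.5% lower in the second. C3 (-0.32, adjusted p = 0.213), the protease gene C1s1 (0.07, adjusted p = 0.485) and Serping1, the C1 inhibitor gene (-0.10, adjusted p = 0.391), were not called.

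Among other growth factors and receptors of myeloid cells, 4 of 4 tested genes rose from UNT to PBS (Csf2 did not pass the filter on low counts), and 1, Csf2rb, fell with RGLS4326 (-0.33 ± 0.13, SE, adjusted p = 0.0436). Of all tested genes, 43.1% were called higher from UNT to PBS and 18.5% lower with RGLS4326. Csf3, the granulocyte growth factor, went from 0.0207 ± 0.0286 to 1.09 ± 0.338 CPM (SD, n = 12 and 11). Both other receptors for Il34 rose from UNT to PBS. Sdc1, which encodes syndecan-1 and is also epithelial, rose by 2.80 ± 0.13 (adjusted p = 4.16e-20) and fell with the drug by 0.60 ± 0.13 (SE, adjusted p = 0.00263), and Ptprz1 stayed under 1 CPM on average (0.374 in UNT, 0.821 in PBS and 0.826 in RGLS4326 kidneys).

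Markers of other cells moved too, beside 43.1% of all tested genes called higher from UNT to PBS and 18.5% lower with RGLS4326. Monocyte markers rose in 4 of 4 from UNT to PBS and fell in 3 of 4 with RGLS4326, Ccr2 being the exception (0.12, adjusted p = 0.471), and their summed level was 162 to 429 CPM in PBS and 114 to 219.8 in RGLS4326 kidneys. T and NK cell markers rose in 5 of 6 and fell in 5 of 6, with sums of 11.9 to 36.9 and 8.47 to 17.5 CPM. Dendritic cell markers rose in 4 of 5, and with the drug 1 of 5 rose, beside 15.3% of all tested genes (sums of 16.4 to 24.2 and 17.2 to 26.8 CPM). Neutrophil markers rose in 4 of 4, and with the drug S100a8 (-0.82, adjusted p = 0.0583), S100a9 (-0.87, adjusted p = 0.0512) and Csf3r were not called (sums of 7.85 to 40.6 and 10.7 to 21.1 CPM). B cell markers rose in 1 of 4 and fell in 1 of 4 from UNT to PBS, and 1 of 4 fell with the drug, beside 43.1%, 39.0% and 18.5% of all tested genes.

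Kidney cell markers moved as well. Of all tested genes, 43.1% were called higher and 39.0% lower from UNT to PBS, and 18.5% lower from PBS to RGLS4326. From UNT to PBS, collecting duct markers rose in 5 of 5 (median log2 fold change 1.42) and fibroblast and pericyte markers in 5 of 5 (2.16), proximal tubule markers fell in 5 of 5 (-2.68) and podocyte markers in 4 of 4 (-1.25), and endothelial markers rose in 2 and fell in 2 of 4. From PBS to RGLS4326, where 15.3% of all tested genes were called higher, proximal tubule markers rose in 3 of 5, podocyte markers in 4 of 4 and endothelial markers in 3 of 4, whereas collecting duct markers fell in 4 of 5, with sums of 1474 to 3413 CPM in PBS and 885 to 2664 in RGLS4326 kidneys. Fibroblast and pericyte markers rose in 1 of 5, with Col1a1 at -0.08 (adjusted p = 0.753) and Acta2 at 0.02 (adjusted p = 0.871). No listed marker with a row in the tables was at 0 in all libraries. The part of these shifts in the changes of the 10 genes was not tested.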

How the data were processed

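Poly(A) RNA of whole kidneys from 34 mice was sequenced by the authors with stranded TruSeq libraries on a NextSeq instrument. They trimmed reads with Trim Galore, mapped them with STAR to GRCm38 and counted reads per gene with HTSeq (version 0.6.1 in the submitters' processing notes, beside FastQC 0.11.2, SAMtools 1.1 and Picard 1.119). The strand setting and the annotation are not given in the sources used here. The deposited values are raw counts per gene symbol, 1 table per mouse, and the 5 rows of HTSeq totals were left out of library sizes.

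Counts were scaled by TMM, filtered with filterByExpr (15644 genes kept) and fitted in edgeR 4.0.16 (R 4.3.3), whose quasi-likelihood test was applied to all 34 libraries in 1 fit with 3 groups. SE is the absolute log2 fold change divided by the square root of F. Ratios took 1 added count and permutation tests (100000 resamples, numpy 2.4.6, scipy 1.17.1) with Benjamini-Hochberg adjustment over 27 tests. The procedures were tested on simulated data. DESeq2 1.42.0 and other normalizations, filters, covariates and left-out mice were alternatives. CPM per kb used the length of the principal GENCODE M21 transcript. Depth was 17603122 to 54981992 reads in genes, and the fewest reads of the 10 genes were 3 to 32 for Trem2 and 4 to 25 for Gpnmb in UNT kidneys. The labels give 1 library per mouse.

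The 10 genes and the lists were chosen with earlier results of these data known. From each list at most the 3 genes with the smallest adjusted p over PBS vs UNT and RGLS4326 vs PBS are named, with the 3 genes nearest to each of the 10, and others where stated. Older symbols in the tables were matched through RefSeq synonyms (Emr1 for Adgre1). Ly6g was unmatched.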

Additional observations from a re-analysis of the deposited data

How the results depend on the processing

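All 10 rises from UNT to PBS and from UNT to RGLS4326 kept their direction and call in each alternative, among them other scaling, no filter, DESeq2, library set as covariate, each set alone and each of 34 mice left out (the call count stayed at 10). From PBS to RGLS4326 the fit of all 34 mice called 7 of the 10 genes, and leaving out 1 mouse gave 5 to 9. RLE size factors, DESeq2 and library set as covariate called 8, adding Csf1r (adjusted p = 0.0498, 0.042 and 0.0455). Set 1 alone called 0 of the 10 and 54 of all genes, set 2 alone 5 and 4065, set 3 alone 0 and 0 (2826 of all genes had an unadjusted p under 0.05 in edgeR), and the share of unassigned reads as covariate 0 and 89, against 5280 of all genes in the fit of all mice and 4023 to 6209 with 1 mouse left out. The cause was not tested, though each set holds fewer mice. For all genes from UNT to PBS, 12841 were called (12712 to 12916 with 1 mouse left out), and from UNT to RGLS4326, 12157 (12008 to 12379).

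Ratios to Csf1r passed in 9, 6 and 9 genes for PBS vs UNT, RGLS4326 vs PBS and RGLS4326 vs UNT, both counts of 9 with a sign that the choice of Csf1r fixed. Group medians and, added after seeing the data, the share of unassigned reads as covariate left 4 for RGLS4326 vs PBS. Ratios to Adgre1, also added then, passed in 6, 9 and 7, the 9 and the 7 with a sign that the choice of Adgre1 fixed. With the share of unassigned reads as covariate, ratios to Adgre1 no longer passed for Gpnmb, Trem2 and Il34 in PBS vs UNT. Nor did those of Gpnmb and Il34 in RGLS4326 vs PBS. In set 1 alone and in set 2 alone the ratios passed in 0, 0 and 0, and in set 3 alone in 9, 1 and 9, where the exact permutation test cannot go below 0.0571 for 3 mice against 4 or 0.0286 for 4 against 4. The RGLS4326 vs PBS ratio of Il34 reversed to -0.061 with medians and to -0.36 in set 2, and that of Csf1 to 0.013 in set 3. Within UNT mice, r with Csf1r reversed to 0.29 for Trem2 without 2 mice and, for Gpnmb, rose to 0.85 and passed without 2 mice and reversed to -0.12 as deviations from set means.

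Mice of different groups share replicate numbers. Of 33 same-numbered pairs, 9 had deviations correlated over 0.1 (median r = -0.02) and 3 were best matched by their own number, so the numbers were not taken to pair mice. With the replicate block, 10, 7 and 10 of the genes were called for PBS vs UNT, RGLS4326 vs PBS and RGLS4326 vs UNT, and 12781, 5098 and 12162 of all genes.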
